A study of Mus musculus with 34 samples.

Results

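The metallothioneins and a small set of zinc-handling genes were examined in the bulk RNA-seq of the dorsal hippocampus. The genes were chosen by symbol, and 7 of the 54532 genes in the count table carried one of the names: Mt1, Mt2, Mt3, Mtf1, Slc30a1, Slc30a3 and Slc39a14. Bulk libraries came from 8 adult male C57BL/6 J mice that were 2–3 months old. They had lived in individual cages for 7 days and were handled before the experiment. In the SOR group (n = 4) mice explored an open field with objects at fixed places (spatial object recognition, SOR) and were euthanized 1 h later. Homecage mice (n = 4) stayed untrained in their cages. Visium, single-nucleus RNA and single-nucleus ATAC samples of the same study were not analysed here.

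Metallothioneins are small cysteine-rich proteins that bind zinc and copper and buffer the free metal in the cell. Mt1 and Mt2 are present in many tissues, are prominent in astrocytes in the brain, and are induced by metals and by glucocorticoids. Mt3 is the brain-enriched form and responds little to metals. Free zinc is sensed by Mtf1, a zinc-finger transcription factor that binds metal response elements (MREs) in promoters, among them those of Mt1, Mt2 and Slc30a1. The Slc30 (ZnT) family moves zinc out of the cytosol and the Slc39 (ZIP) family moves it in. In the hippocampus the best-known zinc pool lies in glutamatergic synaptic vesicles, which are abundant in mossy fibres and are filled by Slc30a3 (ZnT3).

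The 3 metallothionein genes lie together on chromosome 8 (GRCm38, GENCODE M21), all on the plus strand. Mt3 (ENSMUSG00000031760) spans chr8:94152607-94154146, Mt2 (ENSMUSG00000031762) spans chr8:94172664-94173568 and Mt1 (ENSMUSG00000031765) spans chr8:94179082-94180327. Mt2 starts 18517 bases after the end of Mt3, and Mt1 starts 5513 bases after the end of Mt2. Promoter windows of 250 bases before the RefSeq start (GRCm38.p6) are shown for the metallothioneins and Slc30a1. The number of MREs differed between these windows. Each line runs 5′ to 3′ on the gene's strand, which is plus for all of them, and capitals mark the MRE letters TGCACNC or TGCGCNC on either strand. The windows are chr8:94178839-94179088 for Mt1, chr8:94172368-94172617 for Mt2, chr8:94152357-94152606 for Mt3 and chr1:191906531-191906780 for Slc30a1.
Mt1: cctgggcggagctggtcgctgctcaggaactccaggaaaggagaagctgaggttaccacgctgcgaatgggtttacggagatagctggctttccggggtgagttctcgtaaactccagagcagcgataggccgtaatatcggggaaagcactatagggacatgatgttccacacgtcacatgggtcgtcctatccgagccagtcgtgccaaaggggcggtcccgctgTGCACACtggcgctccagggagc
Mt2: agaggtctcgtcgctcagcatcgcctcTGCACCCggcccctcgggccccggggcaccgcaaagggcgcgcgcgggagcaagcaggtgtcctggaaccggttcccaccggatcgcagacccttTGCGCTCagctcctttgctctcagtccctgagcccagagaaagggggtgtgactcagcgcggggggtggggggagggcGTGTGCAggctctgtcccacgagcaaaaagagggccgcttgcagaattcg
Mt3: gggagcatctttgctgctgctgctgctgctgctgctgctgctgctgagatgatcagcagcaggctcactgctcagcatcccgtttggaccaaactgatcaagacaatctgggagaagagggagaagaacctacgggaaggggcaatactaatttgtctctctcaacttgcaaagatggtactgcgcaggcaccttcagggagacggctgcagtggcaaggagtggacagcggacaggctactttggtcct
Slc30a1: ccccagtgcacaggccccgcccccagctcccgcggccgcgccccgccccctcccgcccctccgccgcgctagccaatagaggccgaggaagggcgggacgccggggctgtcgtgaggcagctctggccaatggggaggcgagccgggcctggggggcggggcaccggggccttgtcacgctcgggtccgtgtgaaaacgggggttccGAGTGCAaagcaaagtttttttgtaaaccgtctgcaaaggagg

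The Mt2 window held 3 MREs, at -223, -128 and -50 from the start, the last of them on the minus strand. Among 32851 RefSeq promoter windows of the same length, 1.26% held 3 or more. The windows of Mt1 and Slc30a1 held 1 each, as did the window at one of the RefSeq starts of Slc30a3, and 21.4% of all windows held at least 1. No MRE letters stood in the Mt3 or Mtf1 windows. RefSeq windows were matched for 6 of the 7 genes, all but Slc39a14. The palindromic glucocorticoid response element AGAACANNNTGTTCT was in none of these windows and in 0.00913% of all windows. The counts hold for these windows only. For Mt1 the annotation also lists transcripts that start further downstream, at 94179211 and 94179241. It also lists later starts for Mt2 (94172664 and 94172860) and Mt3 (94152746). The windows shown end before these starts, and the bases in between were not searched. A match of letters does not show that a factor was bound.

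Of the other genes, Mtf1 (ENSMUSG00000028890) spans chr4:124802104-124849800 and Slc30a1 (ENSMUSG00000037434) spans chr1:191906767-191913247, both on the plus strand. Slc30a3 (ENSMUSG00000029151) spans chr5:31086106-31108237 and Slc39a14 (ENSMUSG00000022094) spans chr14:70303469-70351425, both on the minus strand. Whether strand was used in counting is not stated, and reads of overlapping genes on opposite strands may then be mixed. The antisense partner of Mt2, Gm45774, had at most 5.49% of the Mt2 value in any mouse, as CPM (the count scaled to a common library size). The largest overlap was 1110065P20Rik on the strand opposite to Mtf1, with 11.1 to 15.1 CPM and up to 48.4% of the Mtf1 value.

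Total counts per library lay between 51406011 and 81525977, and each of the 7 genes had at least 976 estimated counts in every mouse. Levels between genes were compared per length, as TPM, a level per length scaled to the same total in each library, with length from the merged exons of each gene. Mt3 had 196.9 ± 23.0 TPM and Mt1 had 179.6 ± 36.6 TPM (SD, n = 8 mice). TPM depends on all RNAs of a library. Rn7s1 and Rn7s2 together held from 7.92% of the counts (SOR mouse 1) to 13.2% (homecage mouse 1). Their part in the spread of TPM between mice was not tested. Mt3 was above Mt1 in 7 of 8 mice, but the ranges overlapped, and their order depended on the length used. Per kilobase of the longest principal transcript, Mt1 had 282.4 ± 51.4 CPM and Mt3 had 271.4 ± 15.5 CPM. By that length Mt1 was the higher in only 3 of 8 mice, most of all in SOR mouse 4. There the ratio of Mt1 to Mt3 CPM was 1.38, against at most 1.06 in the other mice.

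Mt2 followed with 55.9 ± 16.7 TPM, and it was below Mt1 and Mt3 in 8 of 8 mice without overlap. Slc30a3, the synaptic vesicle transporter, had 19.7 ± 1.54 TPM. Slc30a1, the zinc exporter of the plasma membrane, had 8.56 ± 0.98 TPM. Each of these steps separated the mice without overlap. Mtf1 had 5.20 ± 0.70 TPM and Slc39a14 (ZIP14), an importer of zinc that also carries iron and manganese, had 4.39 ± 0.90 TPM. These lowest genes overlapped in range, although Mtf1 was above Slc39a14 in 8 of 8 mice. With the principal transcripts Slc39a14 moved to 6.49 ± 0.97 CPM per kilobase, above Mtf1 with 4.21 ± 0.39. By that length its mean was also above that of Slc30a1 (5.93 ± 0.36), in 5 of 8 mice and with overlapping ranges. The metallothioneins were therefore the most abundant transcripts of the set by either length.

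**Figure D1:**
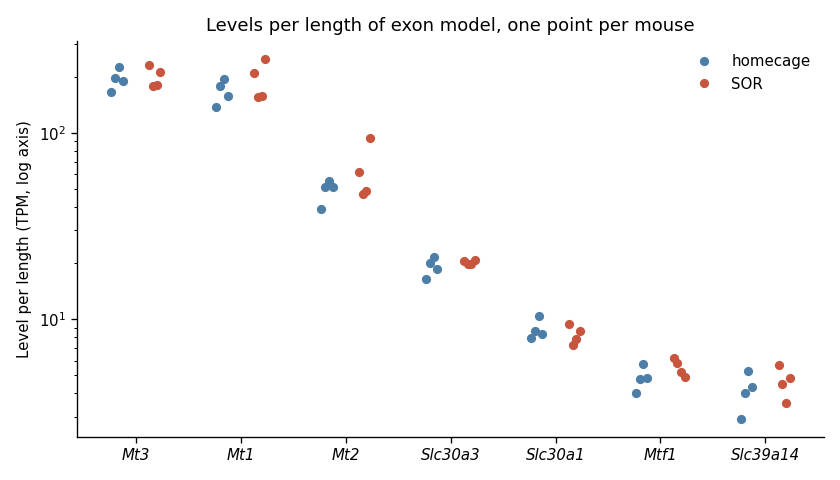
Level per length (TPM, log axis) of each of the 7 genes, ordered by mean, with 1 point per mouse in homecage (blue) and SOR (red). Mt3 and Mt1 overlap at the top, Mt2 lies below both in every mouse, and Mtf1 and Slc39a14 overlap at the bottom.

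The main comparison asked whether SOR training was followed by a change in these genes 1 h later. None of the 7 genes passed an adjusted p of 0.05 in the quasi-likelihood F test of edgeR, against 68 of 22018 genes tested (0.309%), of which 60 were higher in SOR (0.273% of those tested) and 8 lower (0.0363%). None passed with DESeq2, limma-voom or edgeR's likelihood ratio test. Only Mtf1 had an unadjusted p under 0.05 in the quasi-likelihood test without added factors, a level that 10.1% of all genes reached. With 1 to 3 RUVs factors (estimated latent sources of variation) in the model, Mt1 and Mt2 also reached that level. Neither passed after adjustment. The log2 fold change (SOR minus homecage) was above 0 for 6 of the 7 genes and for 43.8% of all genes, and its median was 0.15 for the 7 and -0.02 for all genes. In none of the 7 were the groups free of overlap, against 6.94% of all genes. Below, CPM values are those of libraries scaled by upper quartile, and intervals are 95% intervals of the log2 fold change.

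**Figure D2:**
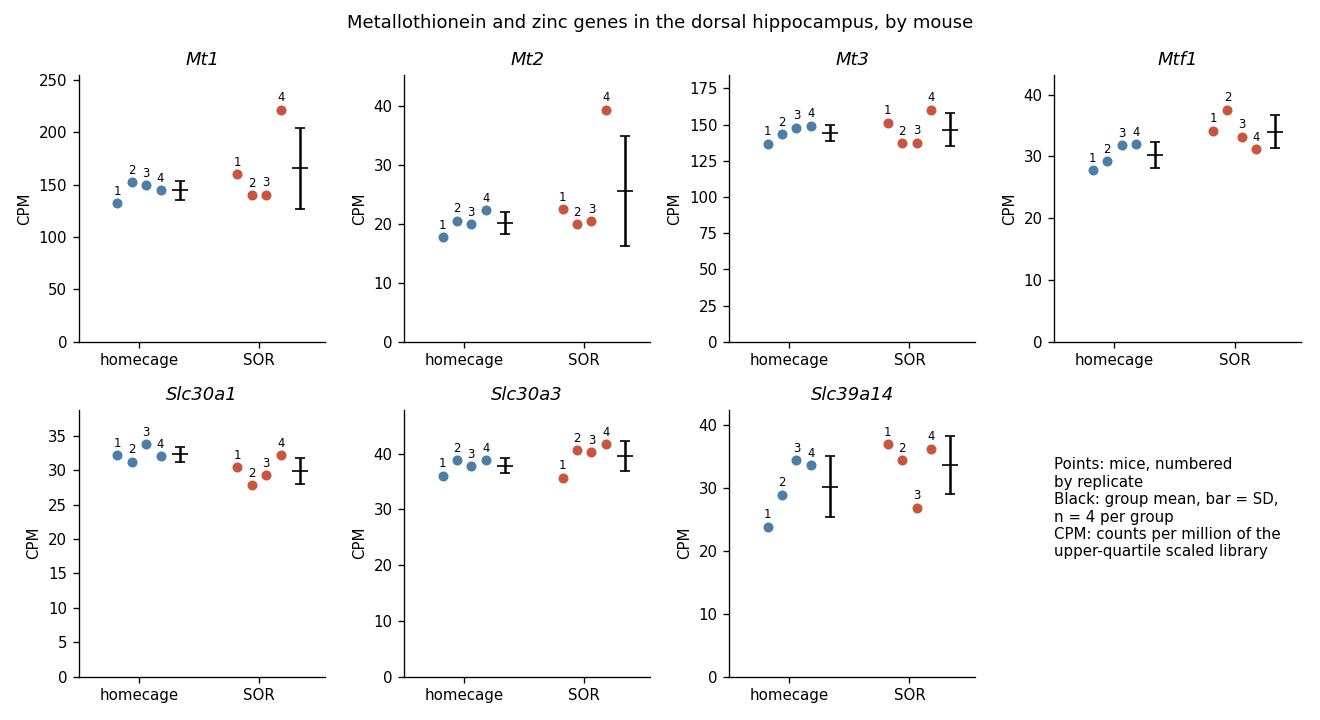
CPM (linear axis from 0) of each gene in the homecage (blue) and SOR (red) mice, with points numbered by replicate and the group mean ± SD in black (n = 4 per group). The groups overlap in every panel, and SOR mouse 4 stands above the other 7 mice for Mt1 (221.6 CPM) and Mt2 (39.3 CPM).

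Mt1 had 132.1, 152.1, 149.3 and 144.5 CPM in homecage mice 1 to 4 and 160.2, 140.0, 140.3 and 221.6 CPM in SOR mice 1 to 4. SOR mouse 4 was the highest of all and SOR mouse 1 the next, while SOR mice 2 and 3 lay within the homecage range. Means were 144.5 ± 8.82 and 165.5 ± 38.6 CPM (SD, n = 4). Training was followed by a log2 fold change of 0.20 (interval -0.09 to 0.48, edgeR adjusted p = 0.664), and an exact permutation test on log2 CPM gave p = 0.429. Without SOR mouse 4 it was 0.02, and the other 3 SOR mice had a mean of 146.9 ± 11.6 CPM, which is 1.02 times the homecage mean. As folds, the interval ran from 0.940 to 1.395.

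Mt2 had 17.7, 20.5, 20.0 and 22.3 CPM in the homecage mice and 22.4, 20.0, 20.5 and 39.3 CPM in the SOR mice. Again SOR mouse 4 stood apart, at 1.88 times the mean of the other SOR mice, and the remaining mice of both groups overlapped. The means were 20.1 ± 1.89 and 25.5 ± 9.25 CPM (SD, n = 4). Its log2 fold change of 0.34 was the largest of the 7, but its interval ran from -0.09 to 0.77 (edgeR adjusted p = 0.610), and the exact permutation p was 0.257. It was 0.05 without SOR mouse 4. The coefficient of variation was 9.37% among homecage mice and 36.2% among SOR mice, a description that rests on the same mouse.

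Mt3 had 136.8, 143.5, 147.8 and 149.3 CPM in the homecage mice and 151.3, 137.2, 137.4 and 160.3 CPM in the SOR mice. SOR mice 2 and 3 lay within the homecage range and SOR mice 1 and 4 above it, with mouse 4 again the highest. Between the means, the log2 fold change was 0.02, with an interval from -0.10 to 0.14 (edgeR adjusted p = 0.935). That interval corresponds to a fold between 0.932 and 1.11, the narrowest range among the metallothioneins. The direction was not stable, since the log2 fold change was -0.03 without SOR mouse 4.

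Mtf1, the metal sensor, had 27.8, 29.2, 31.9 and 32.0 CPM in the homecage mice and 34.1, 37.6, 33.2 and 31.2 CPM in the SOR mice. SOR mice 1, 2 and 3 were above every homecage mouse, whereas SOR mouse 4, the one with the highest Mt1 and Mt2, lay within the homecage range. Mtf1 had a log2 fold change of 0.17 (SE 0.070, interval 0.02 to 0.33). Its unadjusted p of 0.0331 became 0.449 after adjustment over all genes with edgeR, and the exact permutation test gave p = 0.0857, where 0.0286 is the smallest possible. This difference did not pass the correction.

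Slc30a1 had 32.2, 31.2, 33.8 and 32.0 CPM in the homecage mice and 30.5, 27.8, 29.3 and 32.2 CPM in the SOR mice. It was the only gene of the 7 with a lower SOR mean. SOR mice 1, 2 and 3 were below every homecage mouse, and SOR mouse 4 was within their range. For Slc30a1 the log2 fold change was -0.11 (interval -0.23 to 0.02, edgeR adjusted p = 0.555) and the exact permutation p was 0.114. Slc30a1 and Mt2 both carry MREs in the windows shown above, and their log2 fold changes had opposite signs, neither of them past the test. That of Mt2 was 0.05 without SOR mouse 4. A link between the MRE letters and these changes was not tested.

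Slc30a3 had 36.1, 38.8, 37.7 and 38.8 CPM in the homecage mice and 35.7, 40.6, 40.2 and 41.7 CPM in the SOR mice. The lowest of all mice was SOR mouse 1, and the other 3 SOR mice were above every homecage mouse. The log2 fold change of 0.06 had an interval from -0.06 to 0.19 (edgeR adjusted p = 0.770), with an exact permutation p of 0.343. Slc39a14 had 23.9, 29.0, 34.5 and 33.6 CPM in the homecage mice and 37.0, 34.5, 26.9 and 36.3 CPM in the SOR mice. It varied most among the homecage mice, with a coefficient of variation of 16.1%, and the groups were interleaved. Its log2 fold change was 0.15 (interval -0.13 to 0.43, edgeR adjusted p = 0.746), and it was 0.06 without homecage mouse 1 and 0.25 without SOR mouse 3.

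The metallothioneins were then compared within each mouse, which removes the scaling of the library. The ratio of Mt2 to Mt1 CPM was 0.134, 0.135, 0.134 and 0.154 in the homecage mice and 0.140, 0.143, 0.146 and 0.177 in the SOR mice. SOR mouse 4 had the highest ratio, so Mt2 was high relative to Mt1 in that mouse, and the groups overlapped through homecage mouse 4 (exact permutation p = 0.314). The ratio of Mt1 to Mt3 was 1.38 in SOR mouse 4 and 0.966 to 1.06 in the other mice. For Mt2 to Mt3 it was 0.245 in SOR mouse 4 and 0.130 to 0.149 in the other mice. Mt3 was therefore raised in that mouse by less than Mt1 and Mt2. Between the groups, the exact permutation p was 0.143 for Mt1 to Mt3 and 0.114 for Mt2 to Mt3, which does not test a single mouse.

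**Figure D3:**
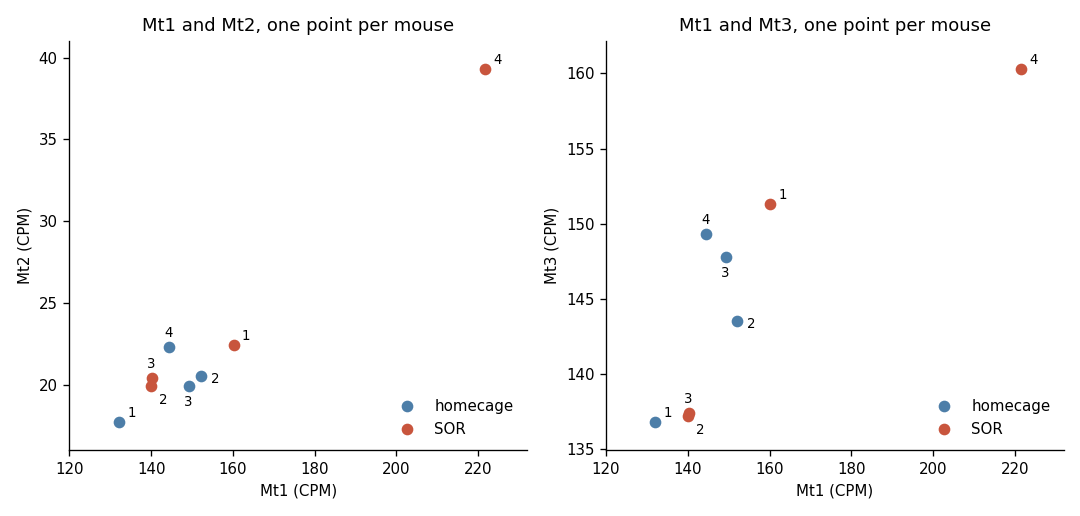
CPM of Mt1 against Mt2 (left) and against Mt3 (right), 1 point per mouse, homecage in blue and SOR in red, numbered by replicate, on axes that do not start at 0. SOR mouse 4 lies at the upper right of both panels, and the other 7 mice lie between 132.1 and 160.2 CPM for Mt1.

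Covariation between mice was measured on log2 CPM after the group means were removed, over the 8 mice and all 21 pairs of the 7 genes. Mt1 and Mt2 had a Pearson r of 0.965 (exact permutation p = 0.0156, adjusted 0.134) and a Spearman rho of 0.929 (exact permutation p = 0.0139, adjusted 0.146). Without the 2 mice farthest from the median of Mt1, SOR 2 and SOR 4, r was 0.810. Mt1 and Mt3 had r = 0.895 (exact permutation p = 0.0191, adjusted 0.134) and rho = 0.762 (exact permutation p = 0.0590, adjusted 0.310), and r was 0.791 without the same mice. For Mt2 and Mt3, r was 0.868 (exact permutation p = 0.00694, adjusted 0.134) and rho 0.833 (exact permutation p = 0.0139, adjusted 0.146), and r was 0.733 without these mice. No pair passed the adjustment, for which the smallest attainable p is 0.00174. Mtf1 had negative r with each metallothionein, from -0.184 with Mt3 to -0.444 with Mt1, none past the test (adjusted p from 0.570 to 0.905, exact permutation). These negative values rested on SOR mice 2 and 4, since without them r was 0.488 with Mt1, 0.629 with Mt2 and 0.789 with Mt3.

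Among 16345 other genes whose mean reached 1 CPM, those whose deviations over the 8 mice were most like those of each of the 7 are given as a description. For Mt1 they were Arhgap5 (r = 0.987) and Fads1 (r = 0.984), and for Mt2 they were Iigp1 (r = 0.995), an interferon-inducible GTPase, and Neu3 (r = 0.988), a sialidase. Mt3 was closest to Gstm1 (r = 0.988), a glutathione transferase, and Aldoa (r = 0.986), a glycolytic enzyme. Mtf1 was closest to Trpc5 (r = 0.974) and Hmgn5 (r = 0.965). For the transporters the closest genes were Enox2 and Sco1 for Slc30a1 (r = 0.983 and 0.982), Slc4a4 and Ensa for Slc30a3 (r = 0.994 and 0.984), and Nnt and Rmc1 for Slc39a14 (r = 0.989 and 0.984). With 8 mice and this many genes compared, values as high as these were found for each of the 7.

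The other zinc transporters were measured for comparison. Of 22 listed genes 21 were tested, and Slc30a8, an islet transporter, had too few counts. None passed with edgeR's quasi-likelihood test, DESeq2 or limma-voom, and 1 had an unadjusted p under 0.05. Their log2 fold changes were above 0 for 10 and below 0 for 11, with a median of 0.00. The smallest p belonged to Slc39a2, a low-abundance importer whose mean was 2.36 ± 0.29 CPM for homecage mice and 3.19 ± 0.64 CPM for SOR mice (log2 fold change 0.44, edgeR adjusted p = 0.407). Slc30a6, a transporter of the secretory pathway, had 8.75 ± 0.26 and 7.72 ± 0.67 CPM without overlap of the groups (log2 fold change -0.18, edgeR adjusted p = 0.525), whereas 3.96% of all genes were lower in SOR without overlap.

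**Figure D4:**
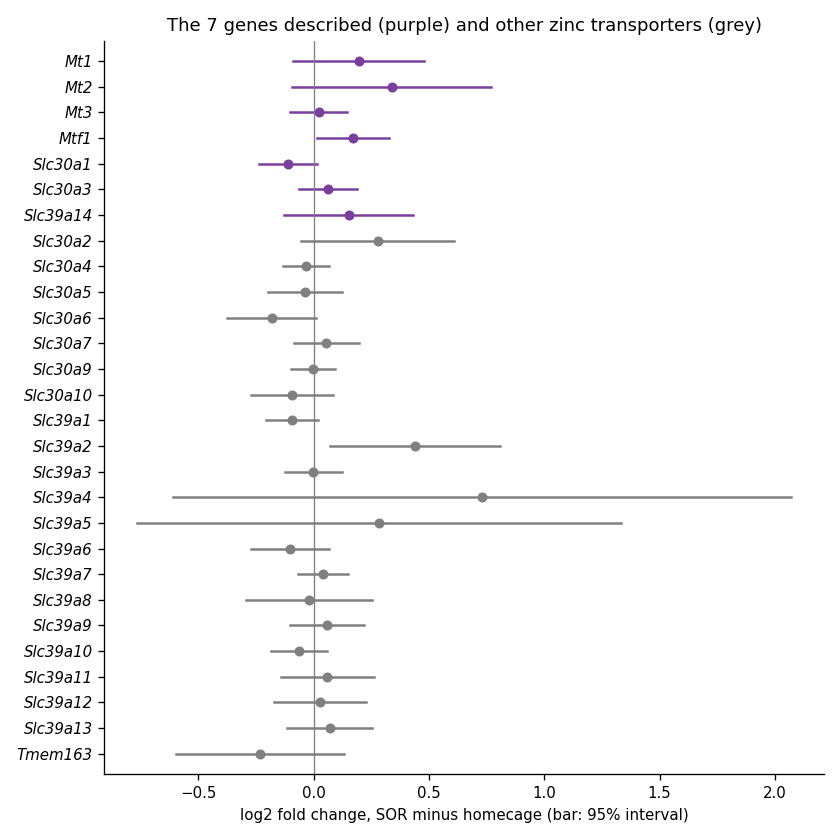
Log2 fold change (SOR minus homecage) with its 95% interval for Mt1, Mt2, Mt3, Mtf1, Slc30a1, Slc30a3 and Slc39a14 (purple) and 21 other zinc transporters (grey). The intervals of Mtf1 (0.02 to 0.33) and Slc39a2 (0.07 to 0.81) leave out 0 before adjustment, and those of the low-abundance Slc39a4 and Slc39a5 are the widest.

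Genes of the zinc-loaded synaptic vesicle and of zinc sensing were measured next. All 11 were tested, including the AP-3 adaptor subunits that sort Slc30a3 to vesicles and the vesicular glutamate transporter Slc17a7. None had an unadjusted p under 0.05, and none passed with edgeR's quasi-likelihood test, DESeq2 or limma-voom. The median log2 fold change was -0.01, and the values ran from -1.45 for Gpr39 to 0.05. The smallest p values were those of Gpr39, a zinc-sensing receptor near the detection limit (0.36 ± 0.23 against 0.12 ± 0.12 CPM, interval -3.13 to 0.23, edgeR adjusted p = 0.559), and Ap3d1 (137.4 ± 3.83 against 130.8 ± 8.09 CPM, edgeR adjusted p = 0.670).

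Further genes reported to respond to metals through Mtf1 were listed next to the metallothioneins. Of 7, 6 were tested (Mt4, the metallothionein of stratified epithelia, had too few counts), and all 6 had log2 fold changes below 0, with a median of -0.10. Over all genes the median was -0.02, and 43.8% were above 0. None passed with edgeR's quasi-likelihood test or limma-voom. The lowest p was that of Slc40a1 (ferroportin, the cellular iron exporter), which had 6.76, 7.22, 7.42 and 7.59 CPM in the homecage mice and 5.05, 5.45, 5.79 and 4.96 CPM in the SOR mice. The groups did not overlap, where 3.96% of all genes were lower in SOR without overlap. Its log2 fold change was -0.45 (interval -0.65 to -0.25, edgeR adjusted p = 0.0909). It passed in 2 of the 14 alternative fits on all mice, the likelihood ratio test and DESeq2. Csrp1, a LIM-domain protein, had a log2 fold change of -0.12 (edgeR adjusted p = 0.534).

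Copper is also bound by metallothioneins, and iron shares carriers such as Slc39a14 with zinc. None of 10 copper genes passed with edgeR's quasi-likelihood test of the main comparison or with limma-voom, and 1 had an unadjusted p under 0.05. That gene was Atp7a, the copper-exporting ATPase, with 14.1, 11.6, 11.9 and 12.98 CPM in the homecage mice and 23.2, 17.2, 15.6 and 15.5 CPM in the SOR mice. Every SOR mouse was above every homecage mouse (log2 fold change 0.50, edgeR adjusted p = 0.194), a pattern seen in 2.98% of all genes, and Atp7a passed with DESeq2 and with 2 or 3 RUVs factors. Cox17, a copper chaperone of the mitochondrion, had a log2 fold change of -0.13 (edgeR adjusted p = 0.510). Of 11 iron genes tested none passed with edgeR's quasi-likelihood test or limma-voom, Slc40a1 was the only one with an unadjusted p under 0.05, and the next lowest p was that of Trf, encoding transferrin (log2 fold change -0.13, edgeR adjusted p = 0.675). Among 11 NRF2 (oxidative stress) targets tested, none passed with edgeR's quasi-likelihood test, DESeq2 or limma-voom. The lowest p values there were those of Nfe2l2, which encodes NRF2 itself (log2 fold change 0.28, edgeR adjusted p = 0.463), and Hmox1, the haem-degrading oxygenase (log2 fold change 0.23, edgeR adjusted p = 0.581).

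Glucocorticoid-induced genes were set beside the metallothioneins because Mt1 and Mt2 are known targets of the receptor. Of 14 such genes 5 passed edgeR's quasi-likelihood test, all of them higher in SOR (0.273% of all genes were). Without overlap, 13 were higher in every SOR mouse than in every homecage mouse (2.98% of all genes were). The list was made with results of these mice known, so its direction is not independent evidence. The genes that passed were Sgk1, a kinase (log2 fold change 1.35, edgeR adjusted p = 3.78e-04), Plin4, a lipid droplet protein (1.60, edgeR adjusted p = 0.00105), Nfkbia, an inhibitor of NF-κB (0.80, edgeR adjusted p = 0.00239), Errfi1, a feedback inhibitor of EGF receptor signalling (0.56, edgeR adjusted p = 0.00477) and Tsc22d3 (0.63, edgeR adjusted p = 0.00553). Fkbp5 was the only gene of the 14 with a log2 fold change below 0 (-0.03). The median was 0.60, against -0.02 for all genes.

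Tsc22d3, the glucocorticoid-induced leucine zipper, is given by mouse as a description, picked once its values were known. It was the third most similar gene to Mt1 (r = 0.983). It had 40.3, 43.7, 43.1 and 41.9 CPM in the homecage mice and 66.8, 60.1, 59.2 and 76.3 CPM in the SOR mice. SOR mouse 4 was again the highest, and all 4 SOR mice were above the homecage mice. SOR mouse 4 did not stand out in the list of 14 glucocorticoid-induced genes. It was the highest of the 8 mice for 4 of them, SOR mouse 1 for 5, SOR mouse 3 for 4 and SOR mouse 2 for 0. For 13 of the 14 the highest mouse had to be a SOR mouse, since the groups did not overlap. For Fkbp5, SOR mouse 4 was the lowest, with 30.3 CPM. Among the 7 genes described here SOR mouse 4 was the highest for 4 (Mt1, Mt2, Mt3 and Slc30a3). The same mouse was the highest for 2125 of 16352 genes whose mean reached 1 CPM.

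**Figure D5:**
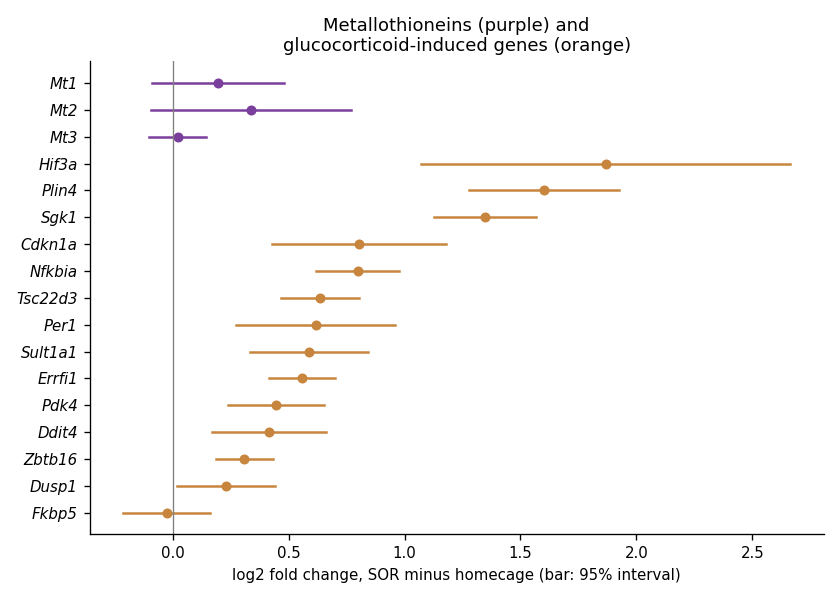
Log2 fold change (SOR minus homecage) with its 95% interval for the 3 metallothioneins (purple) and 14 glucocorticoid-induced genes (orange). The intervals of Mt1, Mt2, Mt3 and Fkbp5 include 0, and those of the other 13 genes lie above 0 before adjustment.

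All 9 dentate granule, 7 CA3 and 8 CA1 markers reached 1 CPM. The summed CPM of the CA1 markers was 384.7 to 428.0 in homecage and 415.5 to 453.2 in SOR mice (exact permutation p = 0.0571), the lowest p among the sums of the 10 cell types. In bulk tissue, fewer cells of a type and less RNA per cell cannot be told apart. The summed CPM of 15 astrocyte markers was 5585 to 5834 in homecage and 5523 to 5986 in SOR mice (exact permutation p = 0.600). SOR mouse 4, with the highest Mt1 and Mt2, had the highest astrocyte sum, 5986 CPM. The next highest sum, 5909 CPM, was that of SOR mouse 2, with the lowest Mt1 and Mt2 of the SOR mice. SOR mouse 1, next to SOR mouse 4 in Mt1, had 5633 CPM. SOR mouse 4 was the highest of the 8 mice for 8 of the 15 astrocyte markers and 4 of the 5 red blood cell markers. Red blood cell markers summed to 98.6 to 126.7 CPM in homecage mice and to 177.0, 115.1, 117.7 and 184.4 CPM in SOR mice 1 to 4, with SOR mice 1 and 4 the highest. Choroid plexus markers (8 of 8 higher in mean, none past the test) summed to 32.1 to 1132 CPM in homecage and 46.1 to 4120 CPM in SOR mice. SOR mouse 1 held the 4120 CPM and SOR mouse 4 the 46.1 CPM. Endothelial markers summed to 160.5 to 192.8 CPM in homecage and 165.9 to 176.8 CPM in SOR mice, and SOR mouse 4 had the lowest SOR value. Oligodendrocyte markers (9 of 9 lower in mean) summed to 5535 to 6029 and 4525 to 5921 CPM. None of the 84 markers of the 10 cell types passed with edgeR's quasi-likelihood test of the main comparison or with limma-voom. Of the 84, 13 had an unadjusted p under 0.05, a level that 10.1% of all genes reached. DESeq2 called 4, against 435 of 22018 genes, and the likelihood ratio test called 3, against 214. With 2 RUVs factors 2 markers passed, against 122 over all genes. With 3 RUVs factors 1 passed, against 97, and without a count filter 1 passed, against 84. None of these markers was at 0 in the tissue. The part of these cell types in the metallothionein values was not tested.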

How the data were processed

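Bulk RNA-seq was measured in 8 dorsal hippocampi (1 library per mouse). Per the study's methods, ribosomal RNA was depleted (the deposited labels name polyA RNA), reads were 150-bp paired-end, and STAR and featureCounts ran within bcbio-nextgen on mm10. The values deposited by the authors are estimated counts per gene, made with tximport, not normalized, with 1 column for each mouse. Versions are not given in the sources used here, nor is any abundance scaling. Counts of replicates differed by more than sampling noise (chi-square divided by its degrees of freedom, 11.2 to 49.4). The estimated counts were rounded and filtered with filterByExpr, leaving 22018 genes, and scaled by upper quartile. Groups were compared in edgeR 4.0.16 (R 4.3.3) by its quasi-likelihood F test, and p was adjusted by Benjamini-Hochberg, with a threshold of 0.05. DESeq2 1.42.0 and limma 3.58.1 were alternatives, as were RUVs factors estimated here. The study's methods also used RUVs, without giving the number of factors. Standard errors came from the log2 fold change and F. Permutation tests were exact and two-sided over 70 assignments on log2(CPM + 0.5), and those of correlations used 576 orders within groups. TPM and CPM were computed here from the deposited counts. Names and positions came from GENCODE M21. The genes and lists were chosen with earlier results of these data known. All 7 genes, the 2 genes of lowest p in each pathway list, those past the threshold, and the 2 most similar genes were named. Tsc22d3 was chosen for values by mouse after its values were seen. Replicate numbers did not pair mice.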

Additional observations from a re-analysis of the deposited data

Results flagged for a closer look

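Mt2 in SOR mouse 4 (39.31 CPM) lay far from the other SOR mice, with 22.4, 20.0 and 20.5 CPM in mice 1, 2 and 3. The gap to the nearest mouse divided by the range of the group passed the 95% limit of Dixon's ratio for 4 samples. It was the only one of the 14 groups examined (7 genes in 2 groups) past that limit, and chance alone passes it in about 1 in 20 groups. Over 16352 genes whose mean reached 1 CPM, SOR mouse 4 was that far above the other SOR mice in 0.844%, and SOR mouse 1 in 1.49%. The library of SOR mouse 4 had the lowest total, 51406011 counts, and Mt2 had 2002 estimated counts in it, the most of any mouse. What sets this mouse apart was not tested.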

How the results depend on the processing

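Over 14 alternative fits on all mice (TMM, RLE and library size scaling, other count filters, the likelihood ratio test, DESeq2, limma-voom, robust dispersion, 1 to 3 RUVs factors, the replicate block and unrounded counts) and 8 fits without 1 mouse, none of the 7 genes passed. Of the 7, only Mt3 changed direction, with a log2 fold change from -0.02673 to 0.05269 when 1 mouse was left out. It was -0.0004963 without homecage mouse 1 and -0.02673 without SOR mouse 4. The log2 fold change spanned 0.02 to 0.27 for Mt1 and 0.05 to 0.44 for Mt2 over the same fits, both lowest without SOR mouse 4, 0.06 to 0.25 for Slc39a14 and 0.03 to 0.11 for Slc30a3. On all mice, adjusted p ran from 0.193 to 0.781 for Mt1, 0.299 to 0.695 for Mt2 and 0.182 to 0.579 for Mtf1. With 1, 2 and 3 RUVs factors, the unadjusted quasi-likelihood p was 0.0363, 0.0143 and 0.0062 for Mt1. For Mt2 it was 0.0294, 0.0334 and 0.0225, and Slc30a1 had 0.0439 with 2 factors. How many of all genes had an unadjusted p under 0.05 in those fits was not counted. Over all genes, 68 passed, against 214 with the likelihood ratio test, 435 with DESeq2, 122 with 2 RUVs factors, 38 when a fold change above 1.4 was also asked, and 30 to 55 without 1 mouse. The cause of these differences was not tested. With the replicate block 40 genes passed. Same-numbered mice had correlations from -0.134 to 0.208 and others from -0.384 to 0.292, so the numbers were not read as pairs. In fits added after seeing the data, 5 to 12 of the 14 glucocorticoid-induced genes passed on all mice (11 with the likelihood ratio test, 12 with DESeq2, 8 with 2 RUVs factors) and 5 without any 1 mouse. With 4 mice per group, differences of the size seen for Mt1, and within the intervals given, could not be told from the spread between mice.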
